A study of Homo sapiens with 24 samples.

Results

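The genes described here are 41 human genes of DNA replication and of the E2F-controlled entry into S phase, measured in MCF10A cells that carried 1 of 2 isoforms of the receptor ERBB4 or an empty vector. They were chosen by symbol, with earlier results of these data known. On the array, 61 probes carried one of these symbols, and 59 of them, covering each of the 41 genes, passed a detection p under 0.05 on at least 4 of the 24 arrays, out of 23019 probes that did so among 47323. The probes left out were 1 of 3 for PCNA and 1 of 2 for RFC5. The genes fell into 5 roles: 12 of origin licensing, 4 of the helicase cofactors CDC45 and GINS, 13 of the polymerases, clamp and Okazaki fragment enzymes, 4 of nucleotide supply, and 8 regulators. Of the 59 probes that passed this filter, 51 were detected on every array. Detection was part of the selection and does not test the label.

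MCF10A is an established non-tumorigenic mammary epithelial line. Of the 3 stable lines, 1 carried a control vector, 1 the CYT1 isoform of ERBB4 and 1 the CYT2 isoform. Every group, the controls included, was starved of serum for 48 h, and each line was then kept for 2 h with or without neuregulin 1 (NRG1), a ligand of ERBB4. This gave 6 groups of 2 samples, and each sample was read on 2 technical arrays. The series title speaks of full-length JM-a receptors, while the sample labels add ICD to the isoform name. Neither names the promoter that drives the receptor or says whether a line is 1 clone. No label says that the 2 biological replicates of a group came from separate cultures, so each p-value reflects only how far these samples lay apart, which may be technical.

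During G1, the origin recognition complex, CDC6 and CDT1 load the MCM2 to MCM7 helicase onto DNA, and CDC45 and the GINS complex join it when S phase starts. The genes for most of these proteins are classic targets of E2F factors, which the retinoblastoma protein holds inactive until cyclin D and cyclin E kinases phosphorylate it. In cultured epithelial cells, serum starvation lowers this programme, and growth factors restore it many hours later than they induce immediate-early genes.

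The promoters of the 6 members with the values described most closely below are shown because the E2F motif is the sequence feature by which these genes are usually grouped. Sequences are from RefSeq, build GRCh38.p14, on the strand of the gene, from 250 bases before to 50 after the first listed start. The windows are E2F2 at chr1:23531184-23531483 on the minus strand, E2F1 at chr20:33686336-33686635 on the minus strand and E2F3 at chr6:20401629-20401928 on the plus strand. The others are CDC25A at chr3:48188368-48188667 on the minus strand, CDT1 at chr16:88803539-88803838 on the plus strand and ORC4 at chr2:148021502-148021801 on the minus strand. Capitals mark the E2F motif on either strand.
E2F2: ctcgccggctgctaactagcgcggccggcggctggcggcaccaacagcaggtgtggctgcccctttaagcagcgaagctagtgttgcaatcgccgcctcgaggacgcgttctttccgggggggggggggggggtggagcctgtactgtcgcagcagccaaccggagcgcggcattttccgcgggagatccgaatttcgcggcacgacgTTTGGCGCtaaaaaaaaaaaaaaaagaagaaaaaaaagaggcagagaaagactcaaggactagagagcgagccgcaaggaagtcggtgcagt
E2F1: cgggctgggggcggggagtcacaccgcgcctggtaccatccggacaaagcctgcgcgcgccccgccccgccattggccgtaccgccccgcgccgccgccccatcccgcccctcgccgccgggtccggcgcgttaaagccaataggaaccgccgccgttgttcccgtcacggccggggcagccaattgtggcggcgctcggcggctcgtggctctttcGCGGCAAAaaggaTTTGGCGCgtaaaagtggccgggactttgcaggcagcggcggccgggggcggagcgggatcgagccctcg
E2F3: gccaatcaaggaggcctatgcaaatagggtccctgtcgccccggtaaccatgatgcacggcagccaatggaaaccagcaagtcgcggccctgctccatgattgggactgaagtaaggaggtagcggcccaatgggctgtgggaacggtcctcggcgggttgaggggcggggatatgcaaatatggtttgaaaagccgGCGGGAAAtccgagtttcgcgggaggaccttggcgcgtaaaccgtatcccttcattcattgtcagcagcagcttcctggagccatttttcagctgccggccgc
CDC25A: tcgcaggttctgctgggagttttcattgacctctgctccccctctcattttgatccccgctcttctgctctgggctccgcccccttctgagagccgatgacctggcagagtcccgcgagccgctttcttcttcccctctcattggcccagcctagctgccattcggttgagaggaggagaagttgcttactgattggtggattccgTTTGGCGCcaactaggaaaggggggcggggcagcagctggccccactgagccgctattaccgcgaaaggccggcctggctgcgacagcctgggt
CDT1: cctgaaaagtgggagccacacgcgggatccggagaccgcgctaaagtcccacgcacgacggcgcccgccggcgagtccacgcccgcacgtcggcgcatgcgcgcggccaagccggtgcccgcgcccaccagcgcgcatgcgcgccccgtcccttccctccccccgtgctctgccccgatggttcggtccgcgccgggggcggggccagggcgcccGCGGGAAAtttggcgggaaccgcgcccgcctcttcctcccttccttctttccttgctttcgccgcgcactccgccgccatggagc
ORC4: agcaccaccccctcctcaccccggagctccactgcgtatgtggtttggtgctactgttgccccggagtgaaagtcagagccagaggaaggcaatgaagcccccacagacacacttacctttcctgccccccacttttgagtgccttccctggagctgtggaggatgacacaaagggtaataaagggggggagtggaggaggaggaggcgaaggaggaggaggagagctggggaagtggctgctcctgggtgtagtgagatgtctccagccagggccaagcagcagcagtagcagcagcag

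The motif was TTTCCCGC, TTTGGCGC, TTTCGCGC or TTTGCCGC on either strand, with overlapping matches counted separately. E2F2 had 1 match, with its first base at position -42 from the start, E2F1 had matches at -33 and -20, and E2F3 had 1 at -53. CDC25A had 1 at -44 and CDT1 1 at -35, while these letters were not in the ORC4 window. Of the 41 genes, 38 had a promoter in the table (MCM4, MCM5 and CCND1 did not), and 22 of the 38 (57.9%) held the motif. The share was 5.36% among 9887 genes with a kept probe and 3.33% among all 27305 promoters. The median GC content was 65.5% for members and 64.7% for genes with a kept probe. The cell cycle homology region (CHR) motif TTTGAA, found in promoters of mitotic genes, was in 2 of 38 member promoters, RRM1 and E2F3 (5.26%), against 10.4% of genes with a kept probe. A match describes the letters in this window only.

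**Figure D1:**
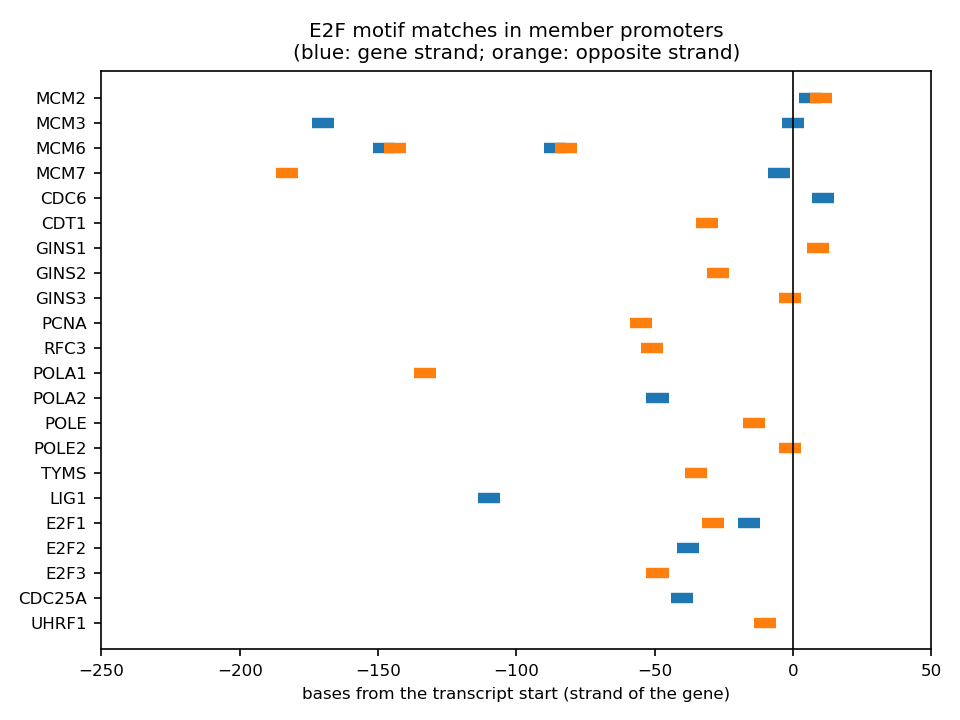
Positions of E2F motif matches in the 22 member promoters that hold one, in bases from the transcript start on the strand of the gene, with matches on the gene strand in blue and on the opposite strand in orange. E2F2 has its match at -42, E2F1 has 2 at -33 and -20, and MCM6 has 4 matches in 2 overlapping pairs.

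Over the whole array, 39.6% to 43% of probes were detected per array. Members varied less between technical arrays of a sample than all probes did in 11 of 12 samples, with root mean square log2 differences of 0.108 to 0.243. Between the 2 samples of a group the same measure for members ran from 0.128 in vector cells with NRG1 to 0.256 in CYT1 cells with NRG1. In CYT1 cells with NRG1, sample 1 stood apart: it was the lowest of the 12 samples for 15 of 59 member probes, against 18.6% of all probes, and sample 2 was the lowest for 0. The 2 samples of vector cells without ligand lay nearly as far apart, at 0.247. Vector sample 1 was the lowest of the 12 for 12 of 59 member probes, against 15.4% of all probes, and vector sample 2 for 7. ERBB4 itself had 1 probe, below detection on all 24 arrays, which checks nothing about the lines. For the epithelial label, KRT5, KRT14, KRT18, EPCAM and CDH1 were detected on 24 of 24 arrays. ITGB4, from the same list, was detected on 24 arrays by some of its probes and on 0 by others. KRT17 and TP63 had no probe under these symbols.

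E2F2, a transcription factor that activates S-phase genes, was the one member that passed the threshold anywhere (limma, Benjamini-Hochberg adjusted p under 0.05 over 23019 probes). It fell with NRG1 in CYT2 cells by 0.80 on the log2 scale, was lower in CYT2 than in vector cells when both had NRG1, and was lower in CYT1 than in vector cells when the groups with and without ligand were averaged. The other 40 genes passed in none of the 13 comparisons. Most log2 changes of members were small: in the comparison with the largest spread of NRG1 effects, CYT2 cells, they ran from -0.80 to 0.47 with a median of -0.11. Levels here are background-corrected, quantile-normalized log2 intensities, and a log2 change of 1 is a doubling. In RNA from a culture as a whole, fewer cells in S phase and less RNA per cell cannot be told apart.

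**Figure D2:**
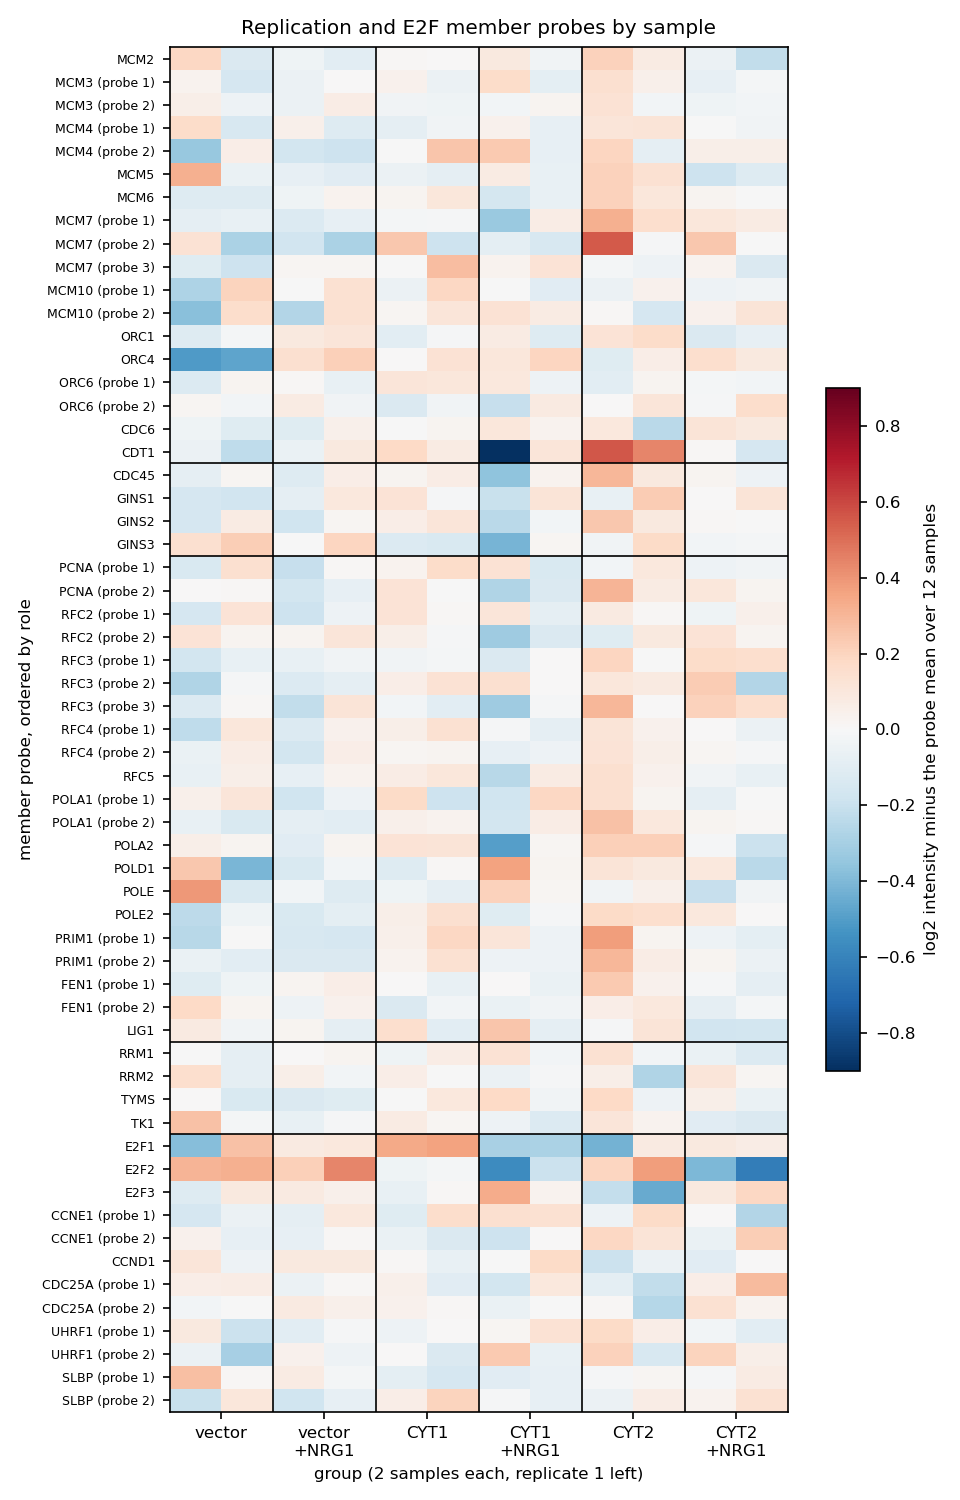
Log2 intensity of each of the 59 member probes minus its mean over the 12 samples, in the 6 groups with replicate 1 at the left, with lines between roles. E2F2 is pale or blue in the CYT1 groups and in CYT2 cells with NRG1, ORC4 is lowest in both vector samples without ligand, and CDT1 is lowest in sample 1 of CYT1 cells with NRG1.

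Each comparison is given with 2 rules, the adjusted p and an unadjusted p under 0.05, and the share of all kept probes that each calls. For NRG1 in vector cells, 0 of 59 member probes passed the adjusted threshold (background 0%) and 1 had an unadjusted p under 0.05 (background 4.34%), or 7 without sample 2 of vector cells. For NRG1 in CYT1 cells the counts were 0 (background 0%) and 6 (background 6.72%), all 6 lower with NRG1. The 6 became 1 without the sample that stood apart, 12 without the other CYT1 sample with NRG1, and 1 or 2 without sample 1 or 2 of CYT1 cells. For NRG1 in CYT2 cells they were 1 (background 0.977%) and 8 (background 9.53%), with 6 of the 8 lower. Without sample 1 of CYT2 cells 6 had such a p and 1 of the 6 was lower, and without sample 2 of CYT2 cells with NRG1 3 had one. In CYT2 cells 42 of 59 member probes lay below 0, against 53.1% of all probes, and in the authors' unnormalized values 7 of 59 did. As shares of the 59 probes, the unadjusted counts were 1.69%, 10.2% and 13.6%.

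The median member change was 0.00 in vector cells, -0.05 in CYT1 cells and -0.11 in CYT2 cells, against 0.00, -0.01 and -0.01 over all probes. Without the CYT1 sample that stood apart the CYT1 median was -0.03, with 16 of 59 probes of the other sign, and without sample 2 of that group it was -0.08. Without sample 1 of CYT2 cells the CYT2 median was -0.07. The sign of the CYT2 median depended on the scaling. In the authors' unnormalized values it was 0.07, where the median of all probes was 0.10, so members lay below all probes by 0.03 there and by 0.10 in the normalized values. The 3 NRG1 comparisons do not share samples.

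Where the NRG1 effects were compared between lines, no member passed. For CYT1 minus vector the counts were 0 (background 0%) and 2 (background 5.4%), the latter 1 without vector sample 1, 6 without vector sample 2 and 8 without sample 2 of CYT1 cells with NRG1. For CYT2 minus vector they were 0 (background 0.122%) and 4 (background 6.98%). For CYT1 minus CYT2 they were 0 (background 0.00434%) and 3 (background 3.91%), the latter 1 without either CYT1 sample or without sample 2 of CYT2 cells with NRG1, and 7 without sample 2 of CYT1 cells with NRG1. A difference between lines in how any one member responded to NRG1 was not shown.

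Without ligand, CYT1 against vector cells gave 0 members past the adjusted p (background 0.117%) and 7 past the unadjusted one (background 12.4%), or 1 to 13 with any 1 of the 4 samples left out (2 and 13 without vector samples 1 and 2, 2 and 1 without CYT1 samples 1 and 2). CYT2 against vector cells gave 0 (background 1.08%) and 9 (background 13.3%), 8 of the 9 higher in CYT2 cells. Without sample 1 of CYT2 cells the 9 became 4, of which 2 were higher. There 45 of 59 member probes lay above 0, against 52.6% of all probes, and the median member difference was 0.11 against 0.01. This comparison and the NRG1 effect in CYT2 cells share the CYT2 samples without ligand, so the signs of the 2 are not independent. Sample 1 of those CYT2 cells was the highest of the 12 samples for 21 of 59 member probes (35.6%, against 9.35% of all probes), and sample 2 was the highest for 3. The 9 probes were 15.3% of the members, and the 7 for CYT1 cells 11.9%.

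With NRG1 in both lines, CYT1 against vector cells gave 0 members (background 0.00869%) and 2 at an unadjusted p (background 7.78%), the latter 1 without the sample that stood apart or without vector sample 2 with NRG1, and 8 without sample 2 of CYT1 cells with NRG1. CYT2 against vector cells gave 1 (background 0.239%) and 1 (background 8%), E2F2 in both counts, and the unadjusted count was 2 without sample 2 of either group. Averaged over ligand, CYT1 against vector cells gave 1 (background 0.447%) and 7 (background 14.4%). These were 0 and 4 without the sample that stood apart, and the 7 became 4 and 11 without vector samples 1 and 2, 3 without vector sample 1 with NRG1 and 3 without CYT1 sample 2. CYT2 against vector cells gave 0 (background 1.16%) and 10 (background 13.5%), the latter 3 without sample 1 of CYT2 cells and 5 without sample 1 of either group with NRG1. CYT1 against CYT2 cells gave 0 (background 0%) and 5 (background 8.43%), all 5 lower in CYT1 cells. None of the 5 was left without the sample that stood apart (0 of 59), and the count was 13 without sample 2 of that group. It was 2 without CYT1 sample 2, 1 without CYT2 sample 1, and 2 and 3 without CYT2 samples 1 and 2 with NRG1. These averaged comparisons reuse the groups of the single ones.

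**Figure D3:**
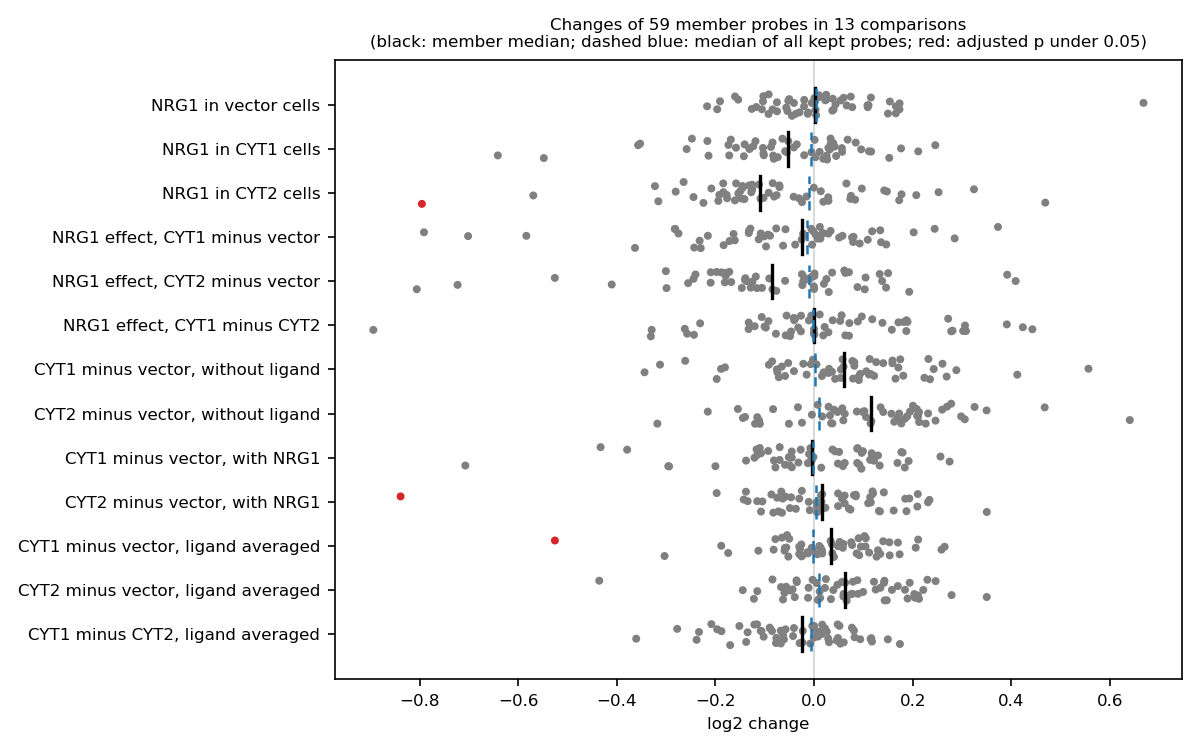
Log2 changes of the 59 member probes in the 13 comparisons, with the member median as a black bar, the median of all kept probes as a dashed blue bar and probes past the adjusted threshold in red. The 3 red points are E2F2, at -0.80, -0.84 and -0.53, and the member median lies lowest, at -0.11, for NRG1 in CYT2 cells.

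Among the 8 regulators (12 probes), E2F2 was measured by 1 probe, detected on 24 of 24 arrays. It lay at 8.88 and 8.89 in vector cells and at 8.78 and 9.01 in vector cells with NRG1. In CYT1 cells it lay at 8.53 and 8.55 without ligand and at 8.0 and 8.37 with NRG1. In CYT2 cells it lay at 8.76 and 8.94 without ligand and at 8.17 and 7.94 with NRG1. Both CYT2 samples with NRG1 were thus below every sample of vector cells, of CYT2 cells without ligand and of CYT1 cells without ligand, and the vector samples with and without NRG1 overlapped. The technical arrays of a sample differed by at most 0.29 for this probe.

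With NRG1 in CYT2 cells, E2F2 was 1.74-fold lower (log2 change -0.80 ± 0.14 (SE), adjusted p = 0.0170, 2 samples against 2). In CYT1 cells the difference was -0.35 ± 0.14 (adjusted p = 0.694) and did not pass, with -0.17 without the sample that stood apart and -0.54 without the other, and in vector cells it was 0.01 ± 0.14 (95% interval -0.29 to 0.31). The difference of the NRG1 effects between CYT2 and vector cells was -0.81 ± 0.20 (adjusted p = 0.223), and between CYT1 and CYT2 cells 0.44 ± 0.20 (adjusted p = 0.9997), so neither passed. With NRG1 present, CYT2 cells had 1.79-fold less E2F2 signal than vector cells (-0.84 ± 0.14, adjusted p = 0.0295), and CYT1 cells had a difference of -0.71 ± 0.14 that did not pass (adjusted p = 0.154). Without ligand the differences from vector cells were -0.34 ± 0.14 in CYT1 cells (adjusted p = 0.341) and -0.03 ± 0.14 in CYT2 cells (adjusted p = 0.952). Averaged over ligand, E2F2 was lower in CYT1 cells (-0.53 ± 0.10, adjusted p = 0.0386), while in CYT2 cells the difference of -0.44 ± 0.10 did not pass (adjusted p = 0.0541).

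The calls on E2F2 rest on few samples. The call for NRG1 in CYT2 cells was lost without sample 2 of CYT2 cells (adjusted p = 0.243), without sample 1 of CYT2 cells with NRG1 (0.0719) or without sample 2 of them (0.162), and it passed without sample 1 of CYT2 cells. The call for CYT2 against vector cells with NRG1 was lost when any 1 of its 4 samples was left out (adjusted p = 0.0817 to 0.442). The averaged call for CYT1 against vector cells passed without sample 2 of CYT1 cells with NRG1 (adjusted p = 0.0201) and was lost without any other of its 8 samples (0.0687 to 0.209), the sample that stood apart included (-0.43 ± 0.09, adjusted p = 0.119). In the authors' unnormalized values none of the 3 passed: the log2 changes were -0.46, -0.60 and -0.29, with adjusted p of 0.0947, 0.223 and 0.118.

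**Figure D4:**
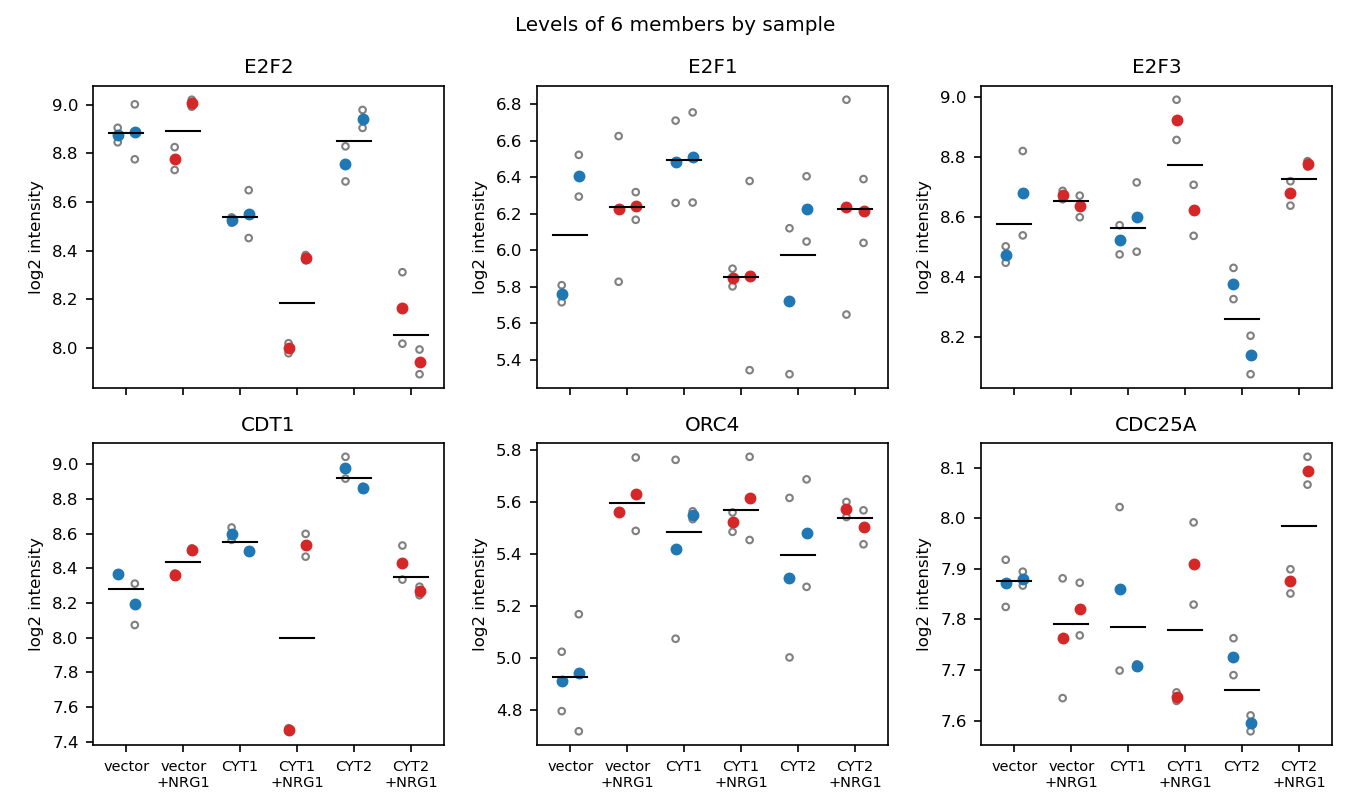
Log2 intensity of 6 members in each sample (filled points, blue without ligand and red with NRG1), with the technical arrays as open points and the group mean as a bar. E2F2 lies at 8.17 and 7.94 in CYT2 cells with NRG1 and at 8.76 and 8.94 without ligand, while the open points of E2F1 spread widely within single samples.

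E2F1, the best studied activator of S-phase genes, had 1 probe. It lay at 5.76 and 6.41 in vector cells, 6.23 and 6.24 in vector cells with NRG1, 6.49 and 6.51 in CYT1 cells and 5.85 and 5.86 in CYT1 cells with NRG1. In CYT2 cells it lay at 5.72 and 6.23 without ligand and at 6.24 and 6.22 with NRG1. The 2 CYT1 groups did not overlap (-0.64 ± 0.19, adjusted p = 0.572), but the change did not pass. Here and for the members below, the share of all probes whose 2 groups do not overlap was not counted. The technical arrays of 1 sample of the E2F1 probe differed by up to 1.18, with a median of 0.40. With quantile normalization alone, without background correction, the NRG1 difference in CYT1 cells was -0.27. For the difference of NRG1 effects between CYT1 and vector cells E2F1 had -0.79 ± 0.26 (adjusted p = 0.913), and between CYT1 and CYT2 cells -0.89 ± 0.26 (adjusted p = 0.9997). With any 1 sample left out these ran from -1.11 to -0.47 and from -1.15 to -0.64.

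E2F3, the third activator, had a difference of the opposite sign from that of E2F2 in CYT2 cells. Its probe lay at 8.38 and 8.14 in CYT2 cells without ligand and at 8.68 and 8.78 with NRG1, and these did not overlap (0.47 ± 0.13, adjusted p = 0.148). In vector cells it lay at 8.48 and 8.68 without ligand and at 8.67 and 8.64 with NRG1, and in CYT1 cells at 8.53 and 8.60 and at 8.92 and 8.62. The 2 CYT2 samples without ligand were thus the lowest of the 12, and the change did not pass.

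CDC25A, the phosphatase that removes inhibitory phosphates from cyclin-dependent kinases at G1/S, had 2 probes. The brighter lay at 7.73 and 7.59 in CYT2 cells and at 7.88 and 8.09 with NRG1 (0.32 ± 0.12, adjusted p = 0.369), and the other gave 0.21. In vector cells the NRG1 differences of these probes were -0.08 and 0.07, and in CYT1 cells -0.01 and -0.06. The 2 CYT2 groups did not overlap on the brighter probe, and the change did not pass.

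CCND1, which encodes cyclin D1, showed a difference with NRG1 of 0.05 in vector cells, 0.11 in CYT1 cells and 0.07 in CYT2 cells. It lay at 11.92 and 11.77 in vector cells, 11.90 and 11.90 with NRG1, 11.83 and 11.75 in CYT1 cells, 11.81 and 11.99 with NRG1, 11.62 and 11.76 in CYT2 cells and 11.71 and 11.82 with NRG1. For NRG1 in CYT2 cells the 95% interval ran from -0.16 to 0.31. CCNE1, cyclin E1, had 2 probes, 1 detected on only 6 arrays, and the one detected on every array had NRG1 differences of -0.01 in vector cells, 0.00 in CYT1 cells and -0.07 in CYT2 cells. UHRF1, which recruits DNA methylation to replicating DNA, had an NRG1 difference of -0.18 in CYT2 cells on the probe detected on every array and of 0.10 on the other. SLBP, which binds histone mRNA, had probes that differed in sign for CYT1 against vector cells without ligand (-0.26 and 0.18).

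Licensing comprised 12 genes and 18 probes, and none passed. ORC4, part of the origin recognition complex, had the smallest p of any member in 4 comparisons. It lay at 4.91 and 4.94 in vector cells without ligand, and at 5.56 and 5.63 in vector cells with NRG1. In CYT1 cells it lay at 5.42 and 5.55 without ligand and at 5.52 and 5.61 with NRG1, and in CYT2 cells at 5.31 and 5.48 and at 5.57 and 5.50. Vector cells without ligand thus lay apart from the other 5 groups, and ORC4 was detected there on 2 of 4 arrays and elsewhere on 19 of 20. The change with NRG1 in vector cells was 0.67 ± 0.11 (adjusted p = 0.625), CYT1 minus vector without ligand was 0.56 ± 0.11 (adjusted p = 0.0911) and CYT2 minus vector 0.47 ± 0.11 (adjusted p = 0.0568). All 3 are differences from the same 2 samples, and technical arrays of ORC4 differed by up to 0.69, with a median of 0.25. The change with NRG1 in vector cells was 0.25 in the authors' unnormalized values and 0.21 with quantile normalization alone. For the differences of NRG1 effects from vector cells ORC4 had -0.58 ± 0.15 in CYT1 cells (adjusted p = 0.752) and -0.53 ± 0.15 in CYT2 cells (adjusted p = 0.348).

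CDT1, which loads MCM helicases and is degraded once S phase begins, had the largest spread of the licensing probes. It lay at 8.37 and 8.19 in vector cells, 8.36 and 8.51 with NRG1, 8.60 and 8.50 in CYT1 cells and 7.47 and 8.53 with NRG1. In CYT2 cells it lay at 8.98 and 8.86 and with NRG1 at 8.43 and 8.27. The 2 CYT2 samples without ligand were the highest of the 12. The NRG1 change was -0.57 ± 0.24 in CYT2 cells (adjusted p = 0.449) and -0.55 ± 0.24 in CYT1 cells (adjusted p = 0.736), and the latter was -0.02 ± 0.13 without the CYT1 sample that stood apart. CYT2 minus vector without ligand was 0.64 ± 0.24 (adjusted p = 0.262).

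The MCM2 to MCM7 helicase genes were measured by 10 probes. With NRG1 in CYT2 cells they ran from -0.32 for MCM5 to 0.00 for a probe of MCM4, with a median of -0.14, and all 10 lay below 0 (8 of 10 lay above 0 in the authors' unnormalized values, where 9 of 10 lay below the median of all probes, as in the normalized values). None passed. MCM5 lay at 9.02 and 8.95 in CYT2 cells and at 8.63 and 8.70 with NRG1, and these did not overlap (-0.32 ± 0.12, adjusted p = 0.389). In vector cells the NRG1 difference of MCM5 was -0.22 ± 0.12 (adjusted p = 1), from -0.41 to -0.03 with any 1 sample left out, and in CYT1 cells 0.07. MCM2 gave -0.28 ± 0.12 in CYT2 cells (adjusted p = 0.478), -0.09 in vector and 0.03 in CYT1 cells.

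Without ligand, CYT2 minus vector cells was above 0 for all 10 MCM2 to MCM7 probes under each of the 3 scalings, with a median of 0.14 in the normalized values. The values included 0.27 ± 0.10 for MCM6 (adjusted p = 0.255) and 0.31, 0.35 and 0.11 for the 3 MCM7 probes, of which the last was detected on 5 arrays. The signs of the 10 probes are those of group means. For MCM5, vector sample 1 lay at 9.14, above the CYT2 mean of 8.99, and vector sample 2 at 8.76. Vector sample 1 was also above the CYT2 mean for MCM2 (8.79 against 8.75) and for a probe each of MCM3 and MCM4. It was below that mean for the other probes. MCM6 lay at 10.54 and 10.54 in vector cells, 10.86 and 10.75 in CYT2 cells and 10.68 and 10.64 in CYT2 cells with NRG1. In CYT1 cells the same 10 probes had a median of 0.06 against vector cells, and MCM7 gave 0.06, 0.11 and 0.29 ± 0.12 (adjusted p = 0.338), the last again on the dim probe and from 0.15 to 0.43 with any 1 sample left out. For CYT1 minus CYT2 averaged over ligand, the brightest MCM7 probe gave -0.23 ± 0.09 (adjusted p = 0.585), or -0.13 without the sample that stood apart, and the others gave -0.24 and 0.15.

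ORC6, with the brightest probe of the role, lay on that probe between 13.18 and 13.54 in the 12 samples. Its other probe lay between 7.28 and 7.51, and the 2 had NRG1 differences of -0.08 to 0.02 in the 3 lines. ORC1, the largest subunit of the origin recognition complex, lay at 6.47 and 6.52 in CYT2 cells and at 6.22 and 6.28 with NRG1 (-0.24 ± 0.10, adjusted p = 0.462). MCM3 had NRG1 differences of -0.14 and -0.08 in CYT2 cells on its 2 probes, and MCM10, needed to activate the loaded helicase, of -0.03 and 0.15. CDC6, the loader that works with CDT1, was detected on 12 of 24 arrays, with a difference of 0.18 in CYT2 cells.

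CDC45 and the GINS subunits GINS1, GINS2 and GINS3 each had 1 probe. With NRG1 all 4 lay below 0 in CYT1 cells (-0.22 to -0.07) and in CYT2 cells (-0.21 to -0.02), while vector cells had 2 of 4 above 0, and none passed. In the authors' unnormalized values 0 of 4 lay below 0 in CYT2 cells. In CYT1 cells the median of -0.16 rested on sample 1: CDC45 lay there at 9.05 against 9.44 in sample 2, and GINS3 at 7.88 against 8.32. Without that sample the differences were -0.02 for CDC45, 0.06 for GINS1, -0.11 for GINS2 and 0.14 for GINS3. GINS2, the brightest of the role, lay at 9.52 and 9.75 in vector cells, 9.49 and 9.69 with NRG1, 9.73 and 9.78 in CYT1 cells and 9.43 and 9.65 with NRG1. It lay at 9.91 and 9.76 in CYT2 cells and at 9.68 and 9.67 with NRG1. GINS3 was the one of the 4 that lay below vector cells in both lines, at -0.31 ± 0.14 in CYT1 cells (adjusted p = 0.387) and -0.12 ± 0.14 in CYT2 cells.

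The polymerase and clamp genes were covered by 21 probes. For NRG1 in CYT2 cells 18 lay below 0, with a median of -0.13 and a range of -0.32 to 0.08, and none passed. In the authors' unnormalized values 3 of 21 lay below 0 and 15 of 21 lay below the median of all probes. POLA2, a subunit of the primase complex that starts each new strand, lay at 8.66 and 8.66 in CYT2 cells and at 8.44 and 8.26 with NRG1 (-0.32 ± 0.14, adjusted p = 0.512). In CYT1 cells its change of -0.36 was -0.10 ± 0.12 without sample 1 with NRG1. PCNA, the sliding clamp, lay on its brighter probe at 10.9999 and 11.28 in vector cells, 10.93 and 11.14 with NRG1, 11.17 and 11.30 in CYT1 cells and 11.26 and 11.0014 with NRG1. In CYT2 cells it lay at 11.11 and 11.23 and with NRG1 at 11.09 and 11.10. Its NRG1 change in CYT2 cells was -0.08 ± 0.13 (95% interval -0.36 to 0.21), and the other PCNA probe gave -0.13.

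Without ligand, 18 of the 21 polymerase and clamp probes lay above 0 in CYT2 minus vector cells, with a median of 0.18, and none passed. POLE2, the accessory subunit of the leading-strand polymerase, lay at 7.51 and 7.71 in vector cells, 7.93 and 7.90 in CYT2 cells, 7.80 and 7.89 in CYT1 cells, and with NRG1 at 7.62 and 7.66, 7.85 and 7.75, and 7.64 and 7.74. CYT2 minus vector was 0.30 ± 0.11 without ligand (adjusted p = 0.237, from 0.20 to 0.40 with any 1 sample left out) and 0.23 ± 0.08 averaged over ligand (adjusted p = 0.184). PRIM1, which makes the RNA primer, gave 0.33 ± 0.13 and 0.26 ± 0.11 on its 2 probes. POLA1, the catalytic subunit beside it, gave 0.28 ± 0.11 on the probe detected on every array and 0.01 on the one detected on 7. RFC3, a subunit of the clamp loader, gave 0.21, 0.23 and 0.21 on its 3 probes, and RFC2 0.06 and -0.08. In CYT1 minus CYT2 cells averaged over ligand, RFC3 gave -0.28 ± 0.10 (adjusted p = 0.585), -0.17 and 0.05. RFC2, a further loader subunit, gave -0.30 ± 0.11 in CYT1 against vector cells with NRG1 on 1 probe (adjusted p = 0.618) and 0.13 on the other.

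FEN1, which trims Okazaki fragments, and LIG1, which joins them, gave NRG1 changes of -0.18 and -0.13 (FEN1) and -0.22 (LIG1) in CYT2 cells. The catalytic subunits POLD1 and POLE gave -0.18 and -0.13. RFC4 gave -0.10 and -0.08, and RFC5 -0.14.

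Among the nucleotide supply genes, RRM1, the large subunit of ribonucleotide reductase, lay between 11.56 and 11.82 in the 12 samples. It lay at 11.68 and 11.60 in vector cells, 11.69 and 11.71 with NRG1, 11.65 and 11.75 in CYT1 cells and 11.82 and 11.66 with NRG1. In CYT2 cells it lay at 11.82 and 11.67 and with NRG1 at 11.63 and 11.56. RRM2, the S-phase subunit, had NRG1 differences of -0.02 in vector cells, -0.06 in CYT1 cells and 0.17 in CYT2 cells. Those of TYMS (thymidylate synthase) were -0.05, 0.03 and -0.07, and those of TK1 (thymidine kinase) -0.16, -0.13 and -0.18. None of the 4 genes had an unadjusted p under 0.05 in the NRG1 comparisons or in the comparisons without ligand.

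Of the genes with several kept probes, 12 of 16 had the same sign on all probes for NRG1 in CYT2 cells, 11 in CYT1 cells and 10 in vector cells. The largest span between probes of 1 gene was 0.27 in CYT2 cells, for UHRF1. For NRG1 in CYT2 cells, the 22 genes with an E2F motif had a median change of -0.11, with 18 below 0, and the 16 without had -0.14, with 10 below 0. These are signs in the normalized values, and in the authors' unnormalized values 35 of 59 member probes had the other sign. The genes with the motif ran from -0.80 to 0.47, and the genes without it lay within that range, from -0.24 to 0.17.

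**Figure D5:**
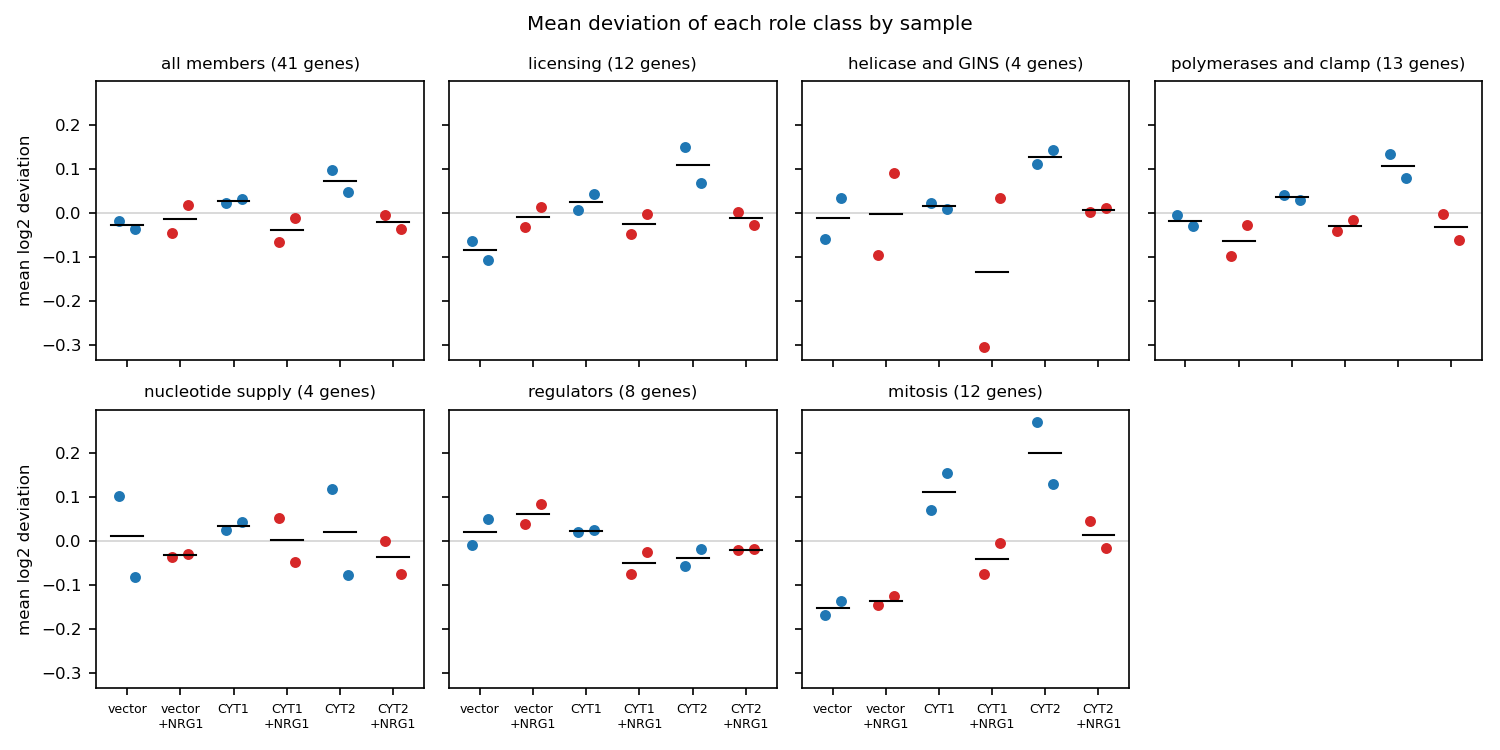
Mean log2 deviation over the genes of each role, and of the mitosis genes, in each sample (blue without ligand, red with NRG1), with the group mean as a bar. The members as a whole lie between -0.07 and 0.10, with the highest value in sample 1 of CYT2 cells without ligand, and the mitosis genes span -0.17 to 0.27.

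The mean deviation over the 41 genes was -0.02 and -0.04 in vector cells, -0.05 and 0.02 with NRG1, 0.02 and 0.03 in CYT1 cells and -0.07 and -0.01 with NRG1. In CYT2 cells it was 0.10 and 0.05, and with NRG1 0.00 and -0.04. The CYT2 samples without ligand were thus the highest of the 12. The mean over licensing genes was lowest in vector cells without ligand (-0.06 and -0.11) and highest in CYT2 cells without ligand (0.15 and 0.07). Regulators showed no such order, at -0.01 and 0.05 in vector cells and -0.06 and -0.02 in CYT2 cells. The licensing means in vector cells rest in part on ORC4, which lay there at -0.51 and -0.47. ORC4 was detected on 2 of the 4 arrays of that group, and the mean without it was not computed.

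Of 31 further replication genes outside the members (among them ORC2, the RPA subunits, DNA2 and CHAF1A), 29 had a kept probe. Of their 39 probes, 0 passed for NRG1 in any line, and 32 lay below 0 in CYT2 cells with a median of -0.12 (8 of 39 and 0.06 in the authors' unnormalized values). For CYT2 minus vector cells without ligand, 0 of 39 passed (background 1.08%) and 12 had an unadjusted p under 0.05 (background 13.3%), all higher. The median was 0.21, from 0.17 to 0.24 with any 1 sample left out. The 12 became 5 without vector sample 1 and 5 without CYT2 sample 1. Of 29 probes of RB, E2F and G1 control genes, 3 passed for NRG1 in CYT2 cells (background 0.977%). MYC, a growth-factor-induced transcription factor, rose on both of its probes (0.85 ± 0.16, adjusted p = 0.0207, and 0.64 ± 0.13, adjusted p = 0.0319). CDKN1B, which encodes the kinase inhibitor p27, fell on 1 probe (-0.64 ± 0.12, adjusted p = 0.0205). Another CDKN1B probe did not pass there, and in CYT1 cells its NRG1 difference was -0.59 ± 0.14 (adjusted p = 0.36). Where the NRG1 effects of CYT2 and vector cells were compared, 0 of the 29 passed (lowest adjusted p = 0.288). The MYC rise of 0.64 shares its CYT2 samples without ligand with the next comparison, which called the same probe. Without ligand, this MYC probe was lower in CYT2 than in vector cells (-0.60 ± 0.13, adjusted p = 0.0442), 1 of 29 (background 1.08%). That call was lost with any 1 of its 4 samples left out, and of the 3 calls for NRG1 2 (both MYC probes) passed without sample 1 of CYT2 cells and 0 without any other of their 4 samples.

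Mitosis genes belong to the later arm of the cell cycle programme. Of their 15 probes, 3 passed for CYT2 minus vector cells without ligand (background 1.08%), all higher. These were both AURKA probes (0.51 ± 0.10, adjusted p = 0.0370, and 0.49 ± 0.10, adjusted p = 0.0387) and PLK1 (0.54 ± 0.11, adjusted p = 0.0456), which encode mitotic kinases. All 3 calls were lost with any 1 of the 4 samples left out and in the authors' unnormalized values, while quantile normalization alone gave 6. The median of the 15 was 0.45, against 0.11 for the members, and the difference between the lists was not tested. For CYT1 minus vector cells without ligand 0 of 15 passed (background 0.117%). There 8 had an unadjusted p under 0.05 (background 12.4%), all higher, and the median was 0.30. Averaged over ligand, 1 AURKA probe passed in CYT2 minus vector cells (0.36 ± 0.07, adjusted p = 0.0329, background 1.16%). With NRG1 in CYT2 cells 0 of 15 passed (background 0.977%) and 4 had an unadjusted p under 0.05 (background 9.53%). The median of the 15 was -0.20 (0.01 in the authors' unnormalized values). Their mean deviation was -0.17 and -0.14 in vector cells, 0.07 and 0.15 in CYT1 cells and 0.27 and 0.13 in CYT2 cells, and sample 1 of CYT2 cells was again the higher. The part of the share of cycling cells in the members' values was not tested.

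Markers of other cell types were in part below detection. PTPRC and CD3E (immune), CDH5 and VWF (endothelial) and PDGFRB and LUM (fibroblast) were detected on 0 of 24 arrays. The normalized signal was summed over probes on the linear scale. For the 12 epithelial probes it ran from 25880 to 31000 in vector cells and from 26940 to 27550 with NRG1. In CYT1 cells it ran from 23270 to 24050 and with NRG1 from 24880 to 26410. In CYT2 cells it ran from 24700 to 26970 and with NRG1 from 25190 to 25730. DCN was detected on 24 arrays by 2 of its 4 probes, COL1A1 on 18, and CD14 and CD68 on 24 by at least 1 probe. The 11 fibroblast probes summed to 457 to 549 over all groups and the 10 immune probes to 785 to 954.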

How the data were processed

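Total RNA from 12 samples was measured on Illumina BeadChips, 2 technical arrays each, per the labels. The deposited scanner table holds, per the file headers, an intensity (mean bead signal) and a detection p-value for 47323 probes on 24 arrays. The deposited value table holds log2 values that equalled the log2 of those signals to within 5e-09, so no background correction or normalization was applied to them. Scanner and software were not given in the sources used here. Per array, the median signal was 114 to 126.3, and the number of arrays limits the precision. Chips and scan dates were not used as batches, since the files name none.

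The function neqc corrected the background and quantile normalized the intensities (offset 16, negative controls inferred from detection p-values) in limma 3.58.1 (R 4.3.3). Probes with a detection p under 0.05 on at least 4 arrays were kept. Technical arrays were averaged, and the 12 samples entered 1 model of 6 group means (lmFit, eBayes, 6 residual and 6.82 prior degrees of freedom) with Benjamini-Hochberg adjustment over all kept probes. Probes were named through the platform annotation: 30113 had 1 symbol, 8 several and 17202 none. The code of the fit was run on simulated data with normal noise, which does not test the calls reported here. Promoters are from RefSeq (GRCh38.p14).

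The members and lists were chosen with earlier results of these data known. Member probes past the threshold were named with all values, with the 2 of smallest p where a comparison had none, and the brightest probe of each role. Other named members were chosen after their values were seen. Alternatives covered the scaling, the filter, 1 probe per gene, the replicate block, the samples in the fit, technical arrays and eBayes options. Unadjusted counts with each sample left out, and signs by role under each scaling, were added after seeing the data. Replicate numbers were not used to pair samples in the main fit. Deviations of same-numbered samples with and without NRG1 correlated at 0.19, -0.14 and 0.14 in vector, CYT1 and CYT2 cells. With 2 samples a group this does not show whether the samples were paired.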

Additional observations from a re-analysis of the deposited data

How the results depend on the processing

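Over the alternatives, 174 of the 221 counts of members past the threshold kept their value. Most of these counts were 0 in the main fit and had no call to lose. The total thus says little about the calls of E2F2, each of which was lost in several alternatives. None of the 23 log2 changes recomputed for the probes with the smallest p turned its sign. These were probes of E2F1, E2F2, MCM5, MCM7, ORC4, POLE2, RFC2 and RFC3. They were picked by p in these same data, so their signs do not stand for the other members. Over all 59 member probes, 35 turned sign in the authors' unnormalized values for NRG1 in CYT2 cells, 24 in vector cells and 5 in CYT1 cells, and at most 4 in any comparison with quantile normalization without background correction. The calls of E2F2 for NRG1 in CYT2 cells, for CYT2 minus vector cells with NRG1 and for CYT1 minus vector cells averaged over ligand went from 1 to 0 in the authors' unnormalized values, with no filter on dim probes, with only the groups of the comparison in the fit and with technical array 2 only. With technical array 1 only, the last 2 of these went to 0, and CYT2 minus vector cells averaged over ligand went from 0 to 1. That comparison also went to 1 (E2F2) with quantile normalization without background correction, with 1 probe per gene, with trend and robust options in eBayes and with the replicate block (adjusted p = 0.048). CYT2 minus vector cells without ligand went to 1 (ORC4) with detection on at least 12 arrays, with 1 probe per gene and with the replicate block. Trend and robust options gave 1 (E2F2) for CYT1 minus vector cells with NRG1. With all 24 arrays and the sample as a random block, the count was 2 for NRG1 in CYT2 cells, 1 for the difference of NRG1 effects between CYT2 and vector cells, 2 for CYT2 minus vector cells without ligand, 1 for CYT1 minus vector cells with NRG1, 2 for CYT1 and 4 for CYT2 minus vector cells averaged over ligand. The cause was not tested.

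Leaving out 1 sample gave 0 to 1 members for NRG1 in CYT2 cells, 0 to 0 for CYT2 minus vector cells with NRG1, 0 to 2 for CYT1 minus vector cells averaged over ligand, 0 to 1 for CYT1 minus vector cells with NRG1, 0 to 1 for CYT1 minus CYT2 cells averaged over ligand, and 0 in the other 8. The total over all probes for NRG1 in CYT2 cells was 225, and 7 to 593 over the alternatives. The replicate block changed no other count of members. For NRG1 in CYT1 cells in a fit of these groups alone, crossing the replicate numbers, chosen after seeing the data, gave 1 call, and the numbers as given gave 0. Members near detection (8 probes below it on some arrays) have the least reliable changes.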
